A study of Mus musculus with 8 samples.

Results

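Of 10 integrated stress response genes, Atf3, Ddit3 and Asns were lower in mouse peritoneal macrophages co-cultured with apoptotic cells, whereas Atf4 itself showed no detectable difference. The genes were Atf4, Atf5, Atf3, Ddit3, Trib3, Ppp1r15a, Chac1, Asns, Sesn2 and Ddit4. They were chosen by name as known members of the response, and their symbols were matched to Ensembl identifiers with GENCODE release M21. All 10 were among the 47643 genes of the normalized count tables, and 9 had a mean of at least 10 normalized counts over the 8 libraries and were tested. Chac1 fell below that minimum.

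Peritoneal macrophages of C57 BL/6 mice, taken as the adherent cells of a peritoneal lavage, were profiled by QuantSeq, which sequences a short stretch at the 3′ end of each mRNA. In the MΦ+FV-Casp8+Dimerizer group (4 libraries), macrophages shared a transwell overnight with NIH 3T3 FV-hCasp-8 fibroblasts before 10 nM B/B Homodimerizer was added. NIH 3T3 is a mouse fibroblast line, and its transgenic human caspase-8 becomes active, and kills the cell, when the dimerizer joins 2 of its molecules. In the MΦ+Dimerizer group (4 libraries), macrophages received the same dimerizer without fibroblasts, and RNA was taken after 48 h in both groups. Effects of the fibroblasts' presence and of their death therefore cannot be told apart. The engineered lines were grown from single clones, and the co-culture columns of the deposited tables carry the tag 3D10. What that tag stands for, which clone served and the age and sex of the mice are not stated in the sources used here. According to the paper, replicates were macrophages of individual animals, and p-values measure the spread between these libraries. In bulk RNA, fewer cells of a type and less RNA per cell cannot be told apart. Libraries held 5904441 to 11506556 reads, and a normalized count is the number of reads of a gene divided by the size factor of its library.

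The integrated stress response begins with kinases that sense amino acid shortage, unfolded proteins, double-stranded RNA or haem shortage and phosphorylate the translation factor eIF2α. General protein synthesis then slows, whereas a few mRNAs with upstream open reading frames, Atf4 among them, are translated more. The ATF4 protein raises the transcription of genes for amino acid supply, of further stress factors and of inhibitors that end the response. Because ATF4 is controlled largely at translation, the level of its mRNA does not report the level of its protein, which was not measured here.

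ATF4 dimers bind a composite element, the C/EBP-ATF response element (CARE), written TGATGNAA on one strand and TTNCATCA on the other. The start-site windows of the members, from 250 bases before to 50 bases after each RefSeq transcription start on GRCm38.p6, were searched for these letters on both strands. They occurred in 4 of the 10 members, which had 11 windows in all. In the whole set they occurred in 1304 of 32851 windows (3.97%), a count of windows and not of genes. The members were chosen as known genes of the response, so no excess over that share is read as a result. The 4 matches were in Atf3 and Asns, which were lower, in Trib3, which was not called, and in Chac1, which was below the minimum for testing. Each line holds 30 bases in the direction of the gene, with the element in capitals.
Atf3, chr1:191183425-191183454, minus strand: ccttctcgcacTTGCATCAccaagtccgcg
Chac1, chr2:119351038-119351067, plus strand: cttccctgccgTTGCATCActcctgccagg
Trib3, chr2:152344028-152344057, minus strand: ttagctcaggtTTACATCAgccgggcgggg
Asns, chr6:7693214-7693243, minus strand: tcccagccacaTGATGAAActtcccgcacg

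Atf3 and Chac1 shared the same 8 letters, TTGCATCA. With 2 to 12 reads a library, Chac1 was too low for a change in it to be judged. The element began 110 bases before the start site in Atf3, at position -110, and at -193 in Chac1. It began at -23 in Asns and 15 bases after the start in Trib3. These positions count from 1 RefSeq start per window, which differs from the outer ends of the GENCODE genes given below, so that the Atf3 and Asns elements lie inside those gene spans and the Trib3 element lies just upstream of its span. The palindrome TGACGTCA, the cAMP response element (CRE) that ATF and CREB factors bind, was found in 1.79% of all windows and, among the members, only in that of Ppp1r15a at -12. Only these exact letters were searched for, so near matches in other members were not counted.
Ppp1r15a, chr7:45526262-45526291, minus strand: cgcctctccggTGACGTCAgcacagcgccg

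A match of letters describes the sequence only, and binding was not measured.

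**Figure D1:**
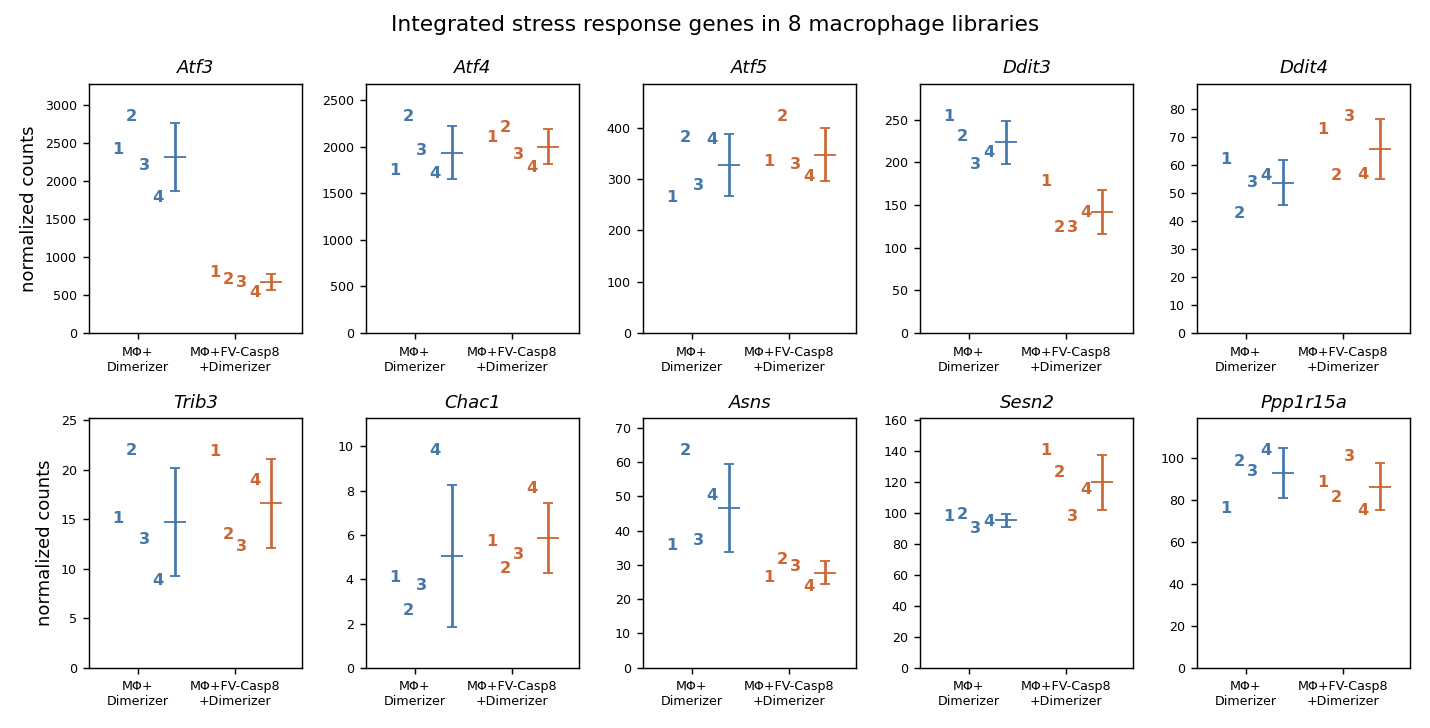
Normalized counts of the 10 genes (vertical axes, linear and starting at 0, with a scale for each gene) in each library, with digits marking the replicate and bars the mean ± SD of 4 libraries. The groups did not overlap for Atf3, Ddit3 and Asns, with MΦ+FV-Casp8+Dimerizer below MΦ+Dimerizer, and overlapped for the 7 other genes.

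Atf3 encodes a bZIP transcription factor that is induced by many stresses and by inflammatory signals and that mostly represses transcription. The gene (ENSMUSG00000026628) lies on chromosome 1 from 191170296 to 191218039, minus strand, on GRCm38. In MΦ+Dimerizer its normalized counts were 2418.5, 2858.2, 2206.5 and 1787.6 in replicates 1 to 4. In MΦ+FV-Casp8+Dimerizer they were 792.5, 711.2, 663.3 and 536.1. Every co-cultured library was thus below every library with dimerizer alone. Mean normalized counts were 2317.7 ± 445.6 and 675.7 ± 107.3 (SD over 4 libraries), and the log2 fold change was -1.77 (SE 0.138, 95% interval -2.07 to -1.47, limma adjusted p = 1.61e-06). This is 3.41-fold lower, and 90 of the 12029 genes tested (0.748%) had a log2 fold change as low or lower. Leaving out each library in turn gave log2 fold changes of -1.89 to -1.66.

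Ddit3 encodes CHOP, a C/EBP-family factor induced by ATF4 that promotes cell death under lasting stress. It lies on chromosome 10 from 127290774 to 127296288, plus strand. In MΦ+Dimerizer its normalized counts were 254.2, 230.9, 197.2 and 211.3, and in MΦ+FV-Casp8+Dimerizer they were 178.0, 123.2, 124.1 and 141.6. The groups did not overlap, although the highest co-cultured library, replicate 1, came close to the lowest library with dimerizer alone, replicate 3. The mean fell from 223.4 ± 24.8 to 141.7 ± 25.6 (SD over 4 libraries), which was 1.58-fold lower (log2 fold change -0.66, SE 0.132, limma adjusted p = 0.00212). The call held when any library was left out (log2 fold change -0.78 to -0.60). The methionyl-tRNA synthetase gene Mars, with a mean of 174.8 normalized counts, overlaps Ddit3 on the opposite strand. The sources used here do not say whether the counting used the strand, and if it did not, reads of these genes cannot be told apart.

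Asns encodes asparagine synthetase, a classical target of ATF4 that makes asparagine from aspartate and glutamine. It lies on chromosome 6 from 7675169 to 7693254, minus strand. In MΦ+Dimerizer its normalized counts were 35.7, 63.2, 37.0 and 50.1, and in MΦ+FV-Casp8+Dimerizer they were 26.4, 31.5, 29.5 and 23.6. The groups did not overlap, but the libraries with dimerizer alone varied widely, and replicate 2 stood highest. The mean fell from 46.5 ± 12.9 to 27.8 ± 3.5 (SD, n = 4 each), 1.62-fold lower (log2 fold change -0.69, SE 0.217, limma adjusted p = 0.0291). This call was the least stable of the 3. It was lost without MΦ+Dimerizer replicate 2 (log2 fold change -0.54, adjusted p = 0.0915) or replicate 4 (-0.65, adjusted p = 0.075). It was also lost without MΦ+FV-Casp8+Dimerizer replicate 1 (-0.67, adjusted p = 0.0554) or replicate 4 (-0.62, adjusted p = 0.0806).

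Of all genes tested, 28.7% passed an adjusted p under 0.05 (13.7% lower and 15% higher), and the groups did not overlap for 29.4%. Of the 9 members tested, 3 were lower (33.3%) and 0 higher by limma, by edgeR and by DESeq2, and 1, Sesn2, was higher at an unadjusted p under 0.05. The share of members that passed was therefore close to that of all genes. The median log2 fold change was 0.05 over the 9 members and 0.01 over all genes tested. Of the 9 log2 fold changes, 5 were positive, but none of these was called. Those of Atf4, Atf5 and Trib3 changed sign when single libraries were left out.

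**Figure D2:**
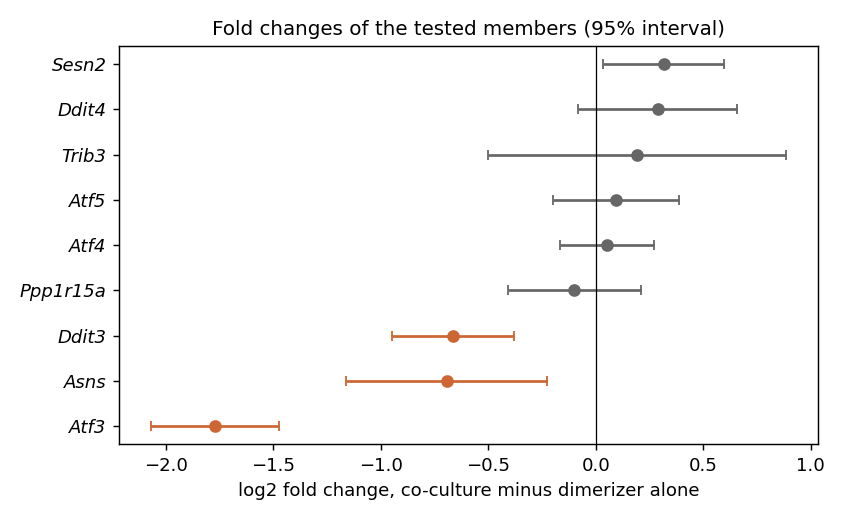
Log2 fold change of each tested member (horizontal axis, MΦ+FV-Casp8+Dimerizer minus MΦ+Dimerizer, n = 4 libraries each) with its 95% interval, coloured where the adjusted p was under 0.05. Atf3 at -1.77 lay far to the left of the other members, and the intervals of 5 members included 0.

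Atf4 encodes the central factor of the response. It lies on chromosome 15 from 80255184 to 80257541, plus strand. Its normalized counts were 1741.0, 2325.6, 1955.5 and 1708.0 in MΦ+Dimerizer and 2099.5, 2198.8, 1911.4 and 1776.1 in MΦ+FV-Casp8+Dimerizer. All 4 co-cultured libraries lay inside the range of the libraries with dimerizer alone. The means were 1932.5 ± 284.1 and 1996.5 ± 189.2 normalized counts (SD, n = 4 each), a 1.04-fold difference whose 95% interval ran from 0.891-fold to 1.21-fold (limma adjusted p = 0.744). Differences within that interval were not detectable with 4 libraries a group.

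Atf5 encodes a factor close to ATF4 in structure, whose mRNA is likewise translated more when eIF2α is phosphorylated. It lies on chromosome 7 from 44812256 to 44816658, minus strand. Its normalized counts were 263.8, 380.5, 287.0 and 377.4 in MΦ+Dimerizer and 334.2, 422.8, 327.6 and 304.8 in MΦ+FV-Casp8+Dimerizer. The groups overlapped, and the spread within each was larger than the difference between their means of 327.2 ± 60.5 and 347.3 ± 51.9 (SD, n = 4 each; log2 fold change 0.09, 95% interval -0.20 to 0.39, limma adjusted p = 0.653). The nucleoporin gene Nup62, with a mean of 628.6 normalized counts, and Il4i1 overlap Atf5 on the opposite strand, so the same limit on strand holds as for Ddit3.

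Sesn2 and Ddit4 encode stress-induced inhibitors of mTORC1, the kinase complex that promotes growth when amino acids and growth factors are plentiful. Sesn2 encodes sestrin 2, also a sensor of leucine, and lies on chromosome 4 from 132492032 to 132510501, minus strand. Its normalized counts were 97.6, 99.3, 89.8 and 94.3 in MΦ+Dimerizer and 140.1, 126.2, 97.7 and 115.3 in MΦ+FV-Casp8+Dimerizer. The libraries with dimerizer alone lay close together, and co-cultured replicate 3 alone fell within their range. The means were 95.3 ± 4.2 and 119.8 ± 17.9 normalized counts (SD, n = 4 each; log2 fold change 0.32, 95% interval 0.04 to 0.60), which did not pass the test (limma adjusted p = 0.0874). Without MΦ+FV-Casp8+Dimerizer replicate 3, the log2 fold change was 0.41 and passed it (adjusted p = 0.0339).

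Ddit4, which encodes REDD1 and lies on chromosome 10 from 59949669 to 59951834, minus strand, had normalized counts of 61.8, 42.6, 53.7 and 56.0 in MΦ+Dimerizer. In MΦ+FV-Casp8+Dimerizer they were 72.4, 56.3, 77.3 and 56.6. The ranges of the groups overlapped between 56.3 and 61.8. The means of 53.5 ± 8.1 and 65.7 ± 10.8 (SD, n = 4 each) did not differ in the test (log2 fold change 0.29, 95% interval -0.08 to 0.66, limma adjusted p = 0.238).

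Trib3, Ppp1r15a and Chac1 encode targets of the pathway, and TRIB3 and GADD34, the product of Ppp1r15a, also limit it. TRIB3 is a pseudokinase that binds ATF4 and CHOP, GADD34 directs a phosphatase to eIF2α, and CHAC1 degrades glutathione. Ppp1r15a lies on chromosome 7 from 45522916 to 45526268, minus strand. Its normalized counts were 75.6, 98.0, 93.5 and 103.2 in MΦ+Dimerizer and 88.4, 81.1, 100.7 and 74.8 in MΦ+FV-Casp8+Dimerizer. The groups overlapped over most of their range, and the log2 fold change of -0.10 had a 95% interval of -0.41 to 0.21 (limma adjusted p = 0.652).

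Trib3 and Chac1 were the 2 lowest members, so their values rest on few reads. Trib3, on chromosome 2 from 152337422 to 152344032, minus strand, had normalized counts of 15.1, 21.9, 13.0 and 8.8 in MΦ+Dimerizer and 21.8, 13.5, 12.2 and 18.9 in MΦ+FV-Casp8+Dimerizer, from 9 to 28 reads a library. The groups overlapped, and the 95% interval of the log2 fold change, 0.19, ran from -0.50 to 0.89 (limma adjusted p = 0.697). Chac1, on chromosome 2 from 119351229 to 119354381, plus strand, had 4.1, 2.6, 3.7 and 9.8 normalized counts in MΦ+Dimerizer and 5.7, 4.5, 5.1 and 8.1 in MΦ+FV-Casp8+Dimerizer, from 2 to 12 reads a library. In both groups replicate 4 was highest, the ranges overlapped, and an exact two-sided permutation test gave p = 0.629.

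MΦ+Dimerizer replicate 2 was the highest of its group for 6 of 10 members, among them Atf3, Atf4 and Asns, and MΦ+FV-Casp8+Dimerizer replicate 4 the lowest of its group for 5. The coefficient of variation (SD divided by mean) within MΦ+Dimerizer ran from 4.38% for Sesn2 to 64.2% for Chac1. Within MΦ+FV-Casp8+Dimerizer it ran from 9.47% for Atf4 to 27.2% for Trib3.

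The ratio of a member to Atf4 within a library hardly depends on how libraries are scaled, and it sets each gene against the central factor. The linear ratio of Atf3 to Atf4 was 1.05 to 1.39 in MΦ+Dimerizer and 0.302 to 0.378 in MΦ+FV-Casp8+Dimerizer. That of Ddit3 was 0.0997 to 0.147 and 0.0564 to 0.0852, and that of Asns 0.0194 to 0.0299 and 0.0131 to 0.0159. For these 3 genes the ratios did not overlap between groups, with differences on the log2 scale of -1.82 for Atf3, -0.72 for Ddit3 and -0.75 for Asns. In a two-sided exact permutation test with 70 relabellings each gave p = 0.0286, the smallest that 4 against 4 libraries allow, and 0.0857 after Benjamini-Hochberg adjustment over the 9 ratios. Adjusted over 9 ratios, that p passes 0.05 only if most ratios reach it together. None of the 9 passed 0.05 after adjustment, a result nearly fixed by that limit, and these 3 passed it unadjusted. Ratios to Atf4 were computed for the members only, so no share over all genes stands beside this count. In normalized counts, the groups did not overlap for the same 3 members and for 29.4% of all genes tested. The other ratios differed by -0.15 (Ppp1r15a) to 0.26 (Sesn2) on the log2 scale, and the smallest exact permutation p among them was 0.114, for Sesn2.

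**Figure D3:**
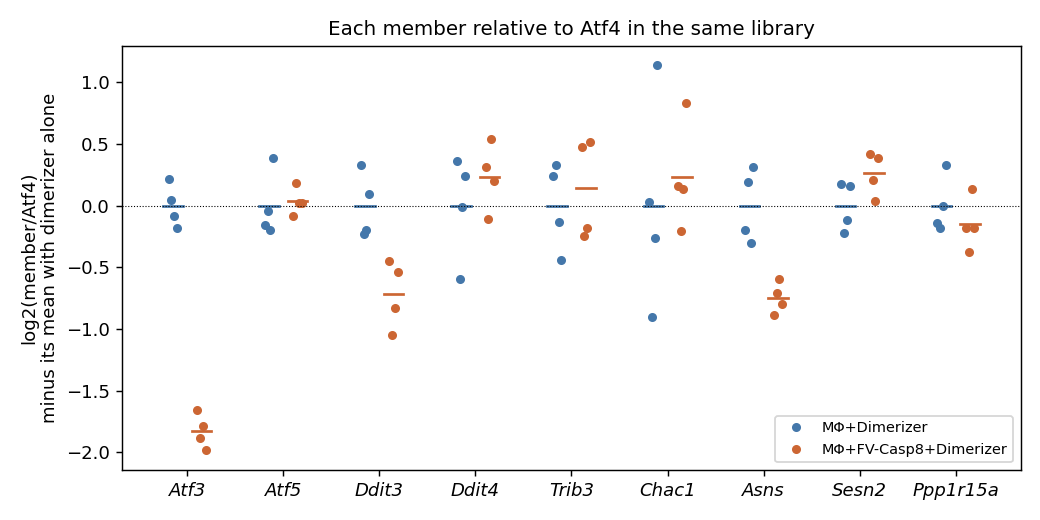
Log2 ratio of each member to Atf4 within a library (vertical axis), minus the mean of the MΦ+Dimerizer libraries, with a point for each of the 4 libraries a group and a bar for the mean. Only Atf3, Ddit3 and Asns had all MΦ+FV-Casp8+Dimerizer libraries below all MΦ+Dimerizer libraries.

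The genes upstream of Atf4 changed in single cases. Of 10 eIF2 kinases and regulators tested, 1 was higher and 1 lower (median log2 fold change 0.02), beside 15% and 13.7% of all genes tested. The count of higher genes was 2 without replicate 2 of MΦ+Dimerizer or replicate 1 of MΦ+FV-Casp8+Dimerizer. Eif2ak2, which encodes the double-stranded RNA sensor PKR and is also an interferon-induced gene, had normalized counts of 130.5, 129.0, 200.9 and 149.4 in MΦ+Dimerizer and 245.8, 256.1, 338.7 and 277.1 in MΦ+FV-Casp8+Dimerizer. It rose without overlap (log2 fold change 0.88, limma adjusted p = 0.000596). Eif2ak4, which encodes the amino acid sensor GCN2, was lower (log2 fold change -0.35, limma adjusted p = 0.0204). That call was lost without replicate 1 of MΦ+Dimerizer (-0.30) or replicate 3 of MΦ+FV-Casp8+Dimerizer (-0.32). Eif2ak1 (HRI, log2 fold change -0.07) and Eif2ak3 (PERK, 0.09), named after their values were seen, did not pass the test (limma adjusted p = 0.552 and 0.651).

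Of 14 genes for eIF2, its exchange factor eIF2B and the eIF2α phosphatase, 3 were higher and 0 lower by limma (median log2 fold change 0.14). edgeR called 2 higher and 0 lower, DESeq2 1 higher and 0 lower, and at an unadjusted p under 0.05 limma had 1 lower. The named ones were Eif2s2, a subunit of eIF2 (log2 fold change 0.26, limma adjusted p = 0.0224), and Eif2b3, a subunit of eIF2B (0.39, adjusted p = 0.0273). The call of Eif2b3 was lost with DESeq2 (adjusted p = 0.0643), without the filter on low values (0.0538) and in 5 of 8 fits that left out a library, namely replicates 3 or 4 of MΦ+Dimerizer (log2 fold change 0.33 and 0.38) and replicates 2, 3 or 4 of MΦ+FV-Casp8+Dimerizer (0.38, 0.38 and 0.40). That of Eif2s2 was lost without replicates 1 (0.22) or 4 (0.25) of MΦ+Dimerizer or replicate 2 of MΦ+FV-Casp8+Dimerizer (0.21). The count of the list did not hold up either. It was 0 without replicate 4 of MΦ+Dimerizer or replicate 2 of MΦ+FV-Casp8+Dimerizer, and 1 without replicate 3 of either group.

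Targets of ATF4 other than the members moved in both directions, and of all genes tested 15% were higher and 13.7% lower. Of 10 tested genes for amino acid synthesis and one-carbon metabolism, 0 were higher and 2 lower, Got1, a transaminase that makes aspartate (log2 fold change -0.33, limma adjusted p = 0.00667), and Aldh1l2, a mitochondrial folate enzyme (-1.14, adjusted p = 0.013). The median of this list was 0.17, 1 gene was higher at an unadjusted p under 0.05, and edgeR and DESeq2 called 0 higher. Without MΦ+FV-Casp8+Dimerizer replicate 3, 1 gene was also higher, and with the replicate number as a block 2 were.

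Of 7 amino acid transporters, 2 were higher and 2 lower (median log2 fold change -0.06), beside 15% and 13.7% of all genes tested. Slc38a2, a transporter of small neutral amino acids, had 737.9, 750.7, 741.7 and 691.8 normalized counts in MΦ+Dimerizer and 1188.7, 1027.3, 1033.5 and 1085.6 in MΦ+FV-Casp8+Dimerizer, a rise without overlap (log2 fold change 0.57, limma adjusted p = 6.73e-05). Slc7a11, the cystine importer, had 1015.5, 1283.4, 1055.5 and 887.4 in MΦ+Dimerizer and 988.9, 635.3, 614.4 and 559.0 in MΦ+FV-Casp8+Dimerizer. It fell (log2 fold change -0.62, adjusted p = 0.00919), although co-cultured replicate 1 lay within the other group. Slc38a2 and Slc7a11, both known ATF4 targets, thus went opposite ways. The calls of Slc1a5 (-0.41, adjusted p = 0.0199) and Slc7a1 (0.35, adjusted p = 0.0448) were lost when single libraries were left out. That of Slc1a5 was lost without replicates 1 or 3 of MΦ+Dimerizer (-0.35 and -0.37) or replicates 2 or 4 of MΦ+FV-Casp8+Dimerizer (-0.34 and -0.38). That of Slc7a1 was lost in 6 of 8 such fits, all but those without replicate 3 of MΦ+Dimerizer or replicate 1 of MΦ+FV-Casp8+Dimerizer, with log2 fold changes of 0.29 to 0.44 over the 8. The Slc7a1 call was also lost by limma with quantile normalization (adjusted p = 0.0624), upper-quartile scaling (0.0618) or no filter (0.0607). By DESeq2 it was lost as well (adjusted p = 0.0554).

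The next 13 genes were those of aminoacyl-tRNA synthetases, which load amino acids onto tRNAs, and Xpot, which encodes a tRNA exporter. Of these, 4 were higher and 1 lower (median log2 fold change 0.17), beside 15% and 13.7% of all genes tested. Iars (0.35, limma adjusted p = 0.0134) and Aars (0.35, adjusted p = 0.0182) were higher and Eprs (-0.28, adjusted p = 0.0245) was lower. The count of higher genes was 1 without replicate 1 of MΦ+Dimerizer, and 2 without its replicate 4 or without replicates 2 or 3 of MΦ+FV-Casp8+Dimerizer. The call of Eprs was lost without replicates 2 (-0.23) or 3 (-0.25) of MΦ+Dimerizer or replicate 4 of MΦ+FV-Casp8+Dimerizer (-0.26), and that of Aars without MΦ+Dimerizer replicate 1 (0.33).

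Among 15 further targets of ATF4 and CHOP, 5 were higher and 6 lower (median log2 fold change -0.16), beside the 28.7% called among all genes. One of the lower genes, Vldlr, named after its values were seen, passed the filter only through MΦ+Dimerizer. Gdf15, a secreted stress cytokine, had 186.9, 196.1, 188.9 and 208.3 normalized counts in MΦ+Dimerizer and 460.5, 582.7, 373.3 and 325.7 in MΦ+FV-Casp8+Dimerizer, a rise without overlap (log2 fold change 1.12, limma adjusted p = 8.58e-05). Herpud1, which takes part in the degradation of unfolded ER proteins, rose from a mean of 385.7 to 654.7 (0.77, adjusted p = 0.000126). Bcl2l11 and Bbc3, genes of the BH3-only proteins that start apoptosis, were lower. Bcl2l11, which encodes BIM, fell from 1084.1 to 541.7 (-1.02, adjusted p = 4.56e-05), and Bbc3, which encodes PUMA, from 380.4 to 258.3 (-0.56, adjusted p = 0.000263).

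**Figure D4:**
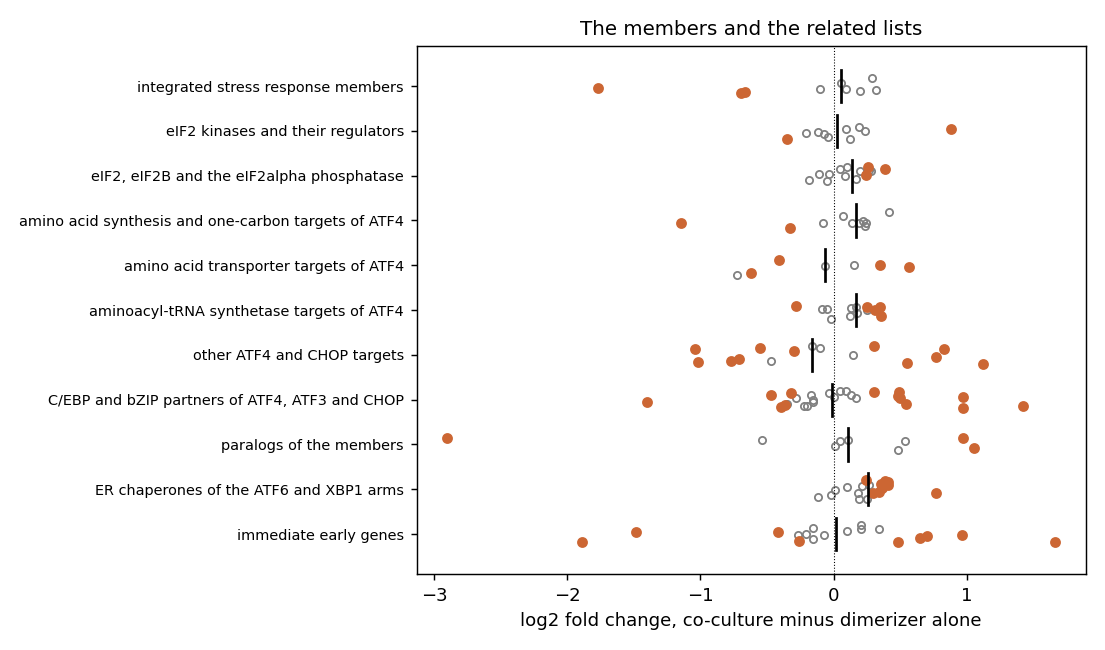
Log2 fold changes (horizontal axis, MΦ+FV-Casp8+Dimerizer minus MΦ+Dimerizer) of the tested genes in each list, filled where the adjusted p was under 0.05, with a black line at the median. The list of ER chaperones, which also holds related genes, had no gene called lower and a median of 0.26. The other lists had medians between -0.16 and 0.17.

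Chaperones of the endoplasmic reticulum are induced mainly by the ATF6 and XBP1 arms of the unfolded protein response. The tested genes of a list of these chaperones and related genes were higher or not called. Of 18 tested, 9 were higher and 0 lower by limma (median log2 fold change 0.26), beside 15% and 13.7% of all genes tested. By edgeR, by DESeq2 or at an unadjusted limma p under 0.05, 0 were lower. The 18 include Dnajc3, also counted with the eIF2 kinases and regulators, and genes other than chaperones, such as Xbp1, Edem1, Syvn1 and Sel1l. Hspa5, which encodes BiP, rose from a mean of 6440.2 to 8566.4 normalized counts (0.41, limma adjusted p = 0.00197). Pdia4, a disulfide isomerase, rose from 293.7 to 501.0 (0.77, adjusted p = 0.000801).

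ATF4, ATF3 and CHOP act as dimers with other bZIP factors. Of 26 C/EBP and bZIP factors tested, 8 were higher and 5 lower (median log2 fold change -0.02), beside 15% and 13.7% of all genes tested. Without MΦ+FV-Casp8+Dimerizer replicate 4, 5 of these factors were higher. Maf, a macrophage differentiation factor, had 6556.0, 6143.4, 6823.1 and 6444.7 normalized counts in MΦ+Dimerizer and 16277.7, 16633.8, 18875.3 and 17883.7 in MΦ+FV-Casp8+Dimerizer, far apart for the small spread within each group (log2 fold change 1.42, limma adjusted p = 1.08e-07). Cebpd was also higher (0.97, adjusted p = 2.8e-05). Cebpa (-0.47, adjusted p = 0.00123) and Batf3 (-1.40, adjusted p = 0.00232) were lower.

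Of 9 relatives of the members, 2 were higher and 1 lower (median log2 fold change 0.11), beside 15% and 13.7% of all genes tested. Jdp2, the closest relative of Atf3, likewise a repressor and also counted among the bZIP factors, had 118.2, 89.0, 101.9 and 137.6 normalized counts in MΦ+Dimerizer and 234.3, 220.8, 197.3 and 214.4 in MΦ+FV-Casp8+Dimerizer. It rose (log2 fold change 0.97, limma adjusted p = 0.000132), against the fall of Atf3. Trib1, a relative of Trib3 that directs C/EBPα to degradation, had 417.7, 371.5, 431.5 and 389.2 in MΦ+Dimerizer and 876.3, 757.7, 823.0 and 879.3 in MΦ+FV-Casp8+Dimerizer, also a rise without overlap (1.05, adjusted p = 1.36e-06). Ddit4l, a relative of Ddit4, fell from 26.1, 37.4, 22.2 and 17.7 to 1.1, 4.5, 3.1 and 2.0 (-2.90, adjusted p = 0.000123). It passed the filter only through MΦ+Dimerizer, where it is high, and was not tested with a minimum mean of 30. The log2 fold changes of the other 6 relatives did not pass the test: -0.54 for Trib2, 0.53 for Chac2, 0.48 for Sesn3, 0.11 for Sesn1, 0.05 for Ppp1r15b and 0.01 for Asnsd1, with limma adjusted p from 0.0668 to 0.943. Without replicate 3 of MΦ+Dimerizer (-0.69) or replicate 4 of MΦ+FV-Casp8+Dimerizer (-0.71), Trib2 was called lower as well. The direction of Asnsd1 turned under other scalings.

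Atf3 is also an immediate early gene, one transcribed within minutes of a stimulus. Of 18 other such genes tested, 5 were higher and 4 lower (median log2 fold change 0.01), beside 15% and 13.7% of all genes tested. Egr2 had 1139.2, 1184.1, 948.1 and 737.0 normalized counts in MΦ+Dimerizer and 402.0, 259.8, 226.8 and 210.4 in MΦ+FV-Casp8+Dimerizer, a fall close in size to that of Atf3 (log2 fold change -1.89, limma adjusted p = 1.03e-05). Egr1 fell as well (-1.48, adjusted p = 7.09e-06). In contrast, Klf2 (1.66, adjusted p = 1.49e-05) and Ier3 (0.96, adjusted p = 0.000181) rose, so Atf3 went with some immediate early genes and against others.

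The 2 most abundant macrophage markers were at high levels: Lyz2 had 159356.4 to 211300.4 and Cd68 8614.8 to 13630.9 normalized counts over the 8 libraries. Others were far lower, such as Cd163, named after its values were seen, with means of 76.5 in MΦ+Dimerizer and 498.7 in MΦ+FV-Casp8+Dimerizer. Of 12 macrophage markers, 6 were higher and 2 lower, with a summed level of 204872.7 to 212332.3 in MΦ+Dimerizer and 236820.1 to 263200.9 in MΦ+FV-Casp8+Dimerizer. Most of that sum was Lyz2, which was itself not called (limma adjusted p = 0.188). Markers of other cells were present and several moved in the direction of Atf3. The counts of markers stand beside 15% higher and 13.7% lower among all genes tested. Of 16 fibroblast markers tested, 12 were lower and 0 higher by limma (0 also at an unadjusted p under 0.05), and the sum of the list was 7878.6 to 11880.6 in MΦ+Dimerizer and 3343.7 to 4950.0 in MΦ+FV-Casp8+Dimerizer. Col1a2 and Sparc, the most abundant of that list, had log2 fold changes of -1.27 and -1.25 (limma adjusted p = 4.8e-05 and 1.8e-05).

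The mesothelial markers (3 of 3 tested lower) summed to 151.3 to 217.1 and 58.0 to 102.9, and the neutrophil and eosinophil markers (3 of 4 lower), led by Mmp8, to 2095.2 to 5272.8 and 1029.5 to 1756.1, with Ly6g, Epx and Prg2 at 0 in every library. The 6 red cell markers summed to 76.9 to 307.8 and 1.0 to 22.5, and the 2 that were tested passed the filter only through MΦ+Dimerizer, so that no count of calls is given. Mast cell markers (2 of 8 lower) summed to 655.2 to 3890.6 and 564.0 to 1550.2. B cell markers (1 of 7 higher, 1 lower) summed to 1456.2 to 8147.8 and 3472.4 to 8813.6, dendritic cell markers (1 of 4 higher, 2 lower) to 395.4 to 622.5 and 349.9 to 965.9, and T and NK cell markers (0 of 1 called by limma, 1 at an unadjusted p under 0.05) to 27.1 to 76.7 and 36.0 to 92.6. Lrrn4, Siglecf, Tpsab1 and Clec9a, each counted among these lower markers and named after their values were seen, likewise passed the filter only through MΦ+Dimerizer. The part of these cells in the lower Atf3, Ddit3 and Asns was not tested.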

How the data were processed

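The authors deposited normalized counts (a signal: whole reads divided by a size factor of each library) for 4 MΦ+Dimerizer and 4 MΦ+FV-Casp8+Dimerizer libraries. The paper's methods give Lexogen's FWD UMI pipeline for QuantSeq (version 2.3.1) for mapping to GRCm38 and its DE pipeline (version 1.3.1) for the comparison. STAR, HTSeq and DESeq2 are named, without versions, in the submitters' processing notes. The annotation release and the use of strand in counting are not given in the sources used here. Multiplied by the factors, 100% of the values in every library were whole to within 0.001 reads, and the factors equalled median-of-ratios factors, so that both groups share 1 scale. GENCODE M21 gave symbols and GRCm38 coordinates for 99.1% of identifiers. Sequences are RefSeq start-site windows of GRCm38.p6.

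limma 3.58.1 in R 4.3.3 was run with a variance trend on log2(normalized count + 1) for the 12029 genes whose mean was at least 10, with Benjamini-Hochberg adjustment over all of them and calls at an adjusted p under 0.05. Fold changes are on that scale, which understates changes of low genes. Single values were tested by exact two-sided permutation over 70 relabellings. Intervals are 95% and not adjusted for the number of genes. On simulated data of the same size (12022 genes) the fit recovered 54.5% of genes changed 1.5-fold, 93.7% of those changed 2-fold and 100% of those changed 4-fold, and called 13 unchanged genes. In that simulation only 66, 63 and 63 genes were changed by these folds, and all genes shared a common dispersion. In the real data 28.7% of genes were called, so these shares of recovery need not hold there.

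Members, lists and tests were chosen with earlier results of these data known. Named genes are the 10 members, the relatives of the members, the 2 genes of smallest adjusted p called in each direction of each list, and the most abundant cell type markers. Alternatives were upper-quartile scaling, quantile normalization, pseudocounts of 0.5 and 5, a mean above 30 or no filter, edgeR 4.0.16 (TMM) or DESeq2 1.42.0 run on recovered reads, array weights, a block for the replicate number, an adjusted p under 0.01 and each library left out. Python 3.11.15, pandas 2.3.3, numpy 2.4.6, scipy 1.17.1 and matplotlib 3.10.9 were used for tables and figures.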

Additional observations from a re-analysis of the deposited data

Results flagged for a closer look

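A library stood apart from the other 3 of its group (Dixon's test at the 95% level) in 5 of 110 groups checked, and chance alone gives about 1 in 20. None of the 5 concerned a member. In MΦ+FV-Casp8+Dimerizer, replicate 1 was low for Slc7a1 (157.3 normalized counts, the others 198.9 to 204.5) and for Herpud1 (555.9, the others 684.9 to 690.5). In the same group, replicate 4 was high for Trib2 (58.7, the others 36.6 to 36.8), and replicate 3 was high for Pdia4 (631.7, the others 444.6 to 473.2). In MΦ+Dimerizer, replicate 1 was low for Bbc3 (350.4, the others 388.2 to 392.1).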

How the results depend on the processing

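Atf3 and Ddit3 kept their direction and their call under all alternatives and with each library left out. Of 179 values of the members, 168 kept direction and call, 6 lost the call (all Asns), 1 gained it and 4 changed sign. The call of Asns was lost without the filter (adjusted p = 0.0567), at an adjusted p under 0.01 and without any of 4 libraries, so that 2 members were lower there. With a library left out, 0 to 1 members were higher, the 1 being Sesn2. At an adjusted p under 0.01, 1104 genes were higher and 968 lower, against 1806 and 1646, and 19 genes of the related lists were higher and 14 lower, against 37 and 22. Log2 fold changes close to 0 changed sign as libraries were left out: -0.003 to 0.146 for Atf4, -0.004 to 0.172 for Atf5, -0.009 to 0.398 for Trib3 and -0.021 to 0.044 for Asnsd1. Asnsd1 was also at -0.013 with quantile normalization, -0.02 with upper-quartile scaling and -0.002 with edgeR. The log2 ratios to Atf4 ran from -0.025 to 0.171 for Atf5, -0.006 to 0.27 for Trib3 and -0.071 to 0.61 for Chac1. The cause of these changes was not tested.

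With the replicate number as a block, 3 members were lower and 0 higher, 46 genes of the related lists were higher and 29 lower, and 2293 of all genes were higher and 2118 lower. Libraries with the same number deviated together with correlations of 0.088 to 0.341, and each correlated best with its own number. Their deposited column names also begin with the same digit, whose meaning is not stated in the sources used here. Whether they came from the same animal is therefore not known. The study states no pairing and the lowest correlation was under 0.1, so the main fit did not treat the libraries as pairs. The block added calls for Trib2 (adjusted p = 0.031) and Sesn3 (adjusted p = 0.0306) and changed no other call of the 45 genes followed. Counts of single lists moved by more than 1.5 times for the eIF2 kinases (2 higher, 2 lower), amino acid synthesis (2 higher), bZIP factors (8 lower), relatives (2 lower) and immediate early genes (7 lower). Depth limits the lowest members: Chac1 had 2 to 12 reads and Trib3 9 to 28 reads a library.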
